A study of Mus musculus with 4 samples.

Results

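The 9 genes described here are Fmnl1, Elmo1, Lat2, Tifab, Ly86, Ms4a6c, Wdfy4, Ap1s3 and Tm6sf1. In leukaemic mouse bone marrow without a Cre transgene they carried acetylation of histone H3 at lysine 9 (H3K9ac). In marrow with Cre they had few or no reads of it. They were 9 of the 9615 genes in the deposited table, all 9 were found there by symbol, and they were chosen by their reads in exactly this contrast, a high level without Cre and few or no reads with it. Their levels in the 2 libraries are therefore given as a description, with no test. The group is named for leukocyte adaptors, but that name fits only some of its genes. Lat2, Elmo1, Ap1s3 and Tifab encode adaptor or scaffold proteins, whereas Fmnl1 encodes a formin, Wdfy4 a large BEACH-domain protein, and Ms4a6c, Tm6sf1 and Ly86 membrane or receptor-bound proteins. Nor was the mark absent from all of them with Cre: 2 of the 9 had 0 reads, 4 had 1 read, 2 had 2 reads and 1 had 8 reads. Over the 9492 genes with recovered reads, 0.99% had 0 reads in tg and 4.96% had at most 2; the choice of the genes sets their share, so nothing is read from the difference.

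H3K9ac marks active promoters and enhancers, and chromatin immunoprecipitation sequencing (ChIP-seq) counts the DNA fragments that an antibody to the mark pulls down. Myeloid cells, the granulocytes, monocytes, macrophages and dendritic cells that the marrow makes, depend on proteins that reshape the actin skeleton for movement and engulfment, carry signals from surface receptors, and sort cargo through endosomes and lysosomes. The 9 genes act at these 3 levels, and some of them are known chiefly from leukocytes.

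The libraries came from bone marrow called leukemic by the submitters. The tg library was from mice with Gfi1b(fl/fl), Nup98(tg) and MxCre(tg), the WT library from mice with Gfi1b(fl/fl) and Nup98(tg) that were MxCre(wt), with 1 H3K9ac library per genotype. Both genotypes thus carry the NUP98/HOXD13 fusion transgene, which causes a myelodysplastic syndrome and leukaemia, and loxP-flanked Gfi1b, a gene of a transcriptional repressor of blood cells; they differ in Cre, driven by the interferon-responsive Mx promoter. The sources used here give neither ages, nor the number of mice per library, nor any induction of Cre. Red cells were lysed before fixation. The 2 rabbit IgG libraries of the series have no column in the table and were not analysed here, so no level below is corrected for background. Scaled reads are taken as reads per 1000000 of a library's total, a base that the sources do not state. On that base the totals come to 163712 reads in tg and 309649 in WT, which may not be all reads sequenced. A 1-probe gene had a median of 11 reads in tg and 22 in WT. Gfi1b itself had 108 reads in tg and 12 in WT over 4 probes, 17.02-fold higher in tg (9.36 to 34.0), where a loss of the whole gene would leave fewer reads in tg. Probe positions are not given, so whether these probes lie in the floxed part is unknown and the values do not check the deletion. With 1 library per genotype no difference has a replicate check, and fewer cells with the mark cannot be told apart from less of the mark per cell.

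As a group the 9 genes held 16 reads in tg and 588 in WT. At equal scaled levels 311 reads would have been seen in tg. The summed scaled level was 97.7 in tg and 1899 in WT, 19.4-fold lower in tg. Its 95% conditional binomial interval of 11.9 to 34.2 covers counting error only. Because the genes were chosen on these same counts, the folds and intervals of the 9 genes do not allow for the choice. They may overstate the difference, and they describe these reads only. Tifab gave 8 of the 16 tg reads and 195 of the 588 WT reads. Without it the other 8 genes held 8 reads in tg and 393 in WT, 26.0-fold lower (13.1 to 60.6). All 9 were 2-fold lower or more, and all 9 also 4-fold lower or more, which the choice of the genes fixes. Over all genes, 15.8% were 2-fold lower or more and 5.5% were 4-fold lower or more. Among the 3395 genes with a WT level of at least that of Ly86, the lowest of the 9 by the deposited mean, 18.7% were 2-fold lower or more. The median log2 ratio of tg over WT was -4.51 for the 9 genes, between -4.90 and -3.64, and 0.05 for all genes.

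**Figure D1:**
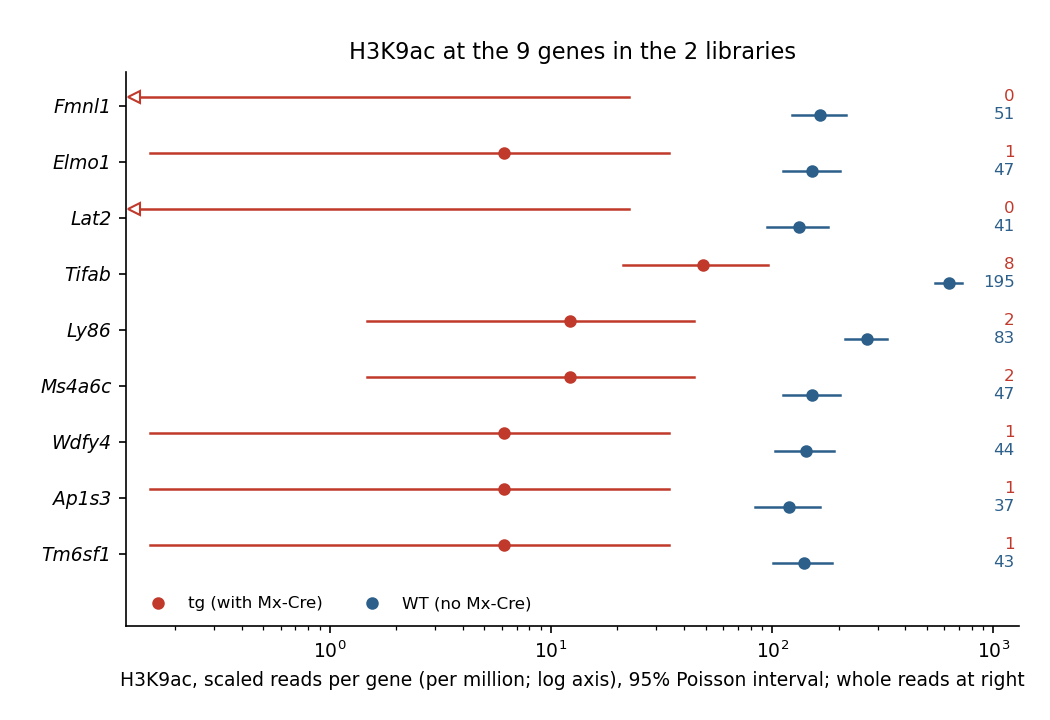
H3K9ac at each of the 9 genes as scaled reads on a log axis, in the tg library (red, upper) and the WT library (blue, lower), with 95% Poisson counting intervals and the whole reads at the right; an open triangle at the left edge stands for 0 reads. The genes were chosen on these counts, so the gap between the libraries is part of the choice; Tifab, with 8 reads in tg and 195 in WT, is highest in both.

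Fmnl1 and Elmo1 act on the actin skeleton. Fmnl1 encodes a formin that nucleates and extends actin filaments in macrophage podosomes and phagocytic cups (chromosome 11, 103171107 to 103198901, GRCm38, ENSMUSG00000055805). Its single probe held 0 reads in tg and 51 in WT, where 27.0 tg reads would have matched the WT level. With the 0 reads put at a floor of 3 reads, or 18.3 scaled reads in tg, against 165 in WT, the level was at least 8.99-fold lower in tg by that floor, and at least 7.05-fold lower by the 95% interval used for the other genes. The deposited log2 ratio of Fmnl1, where 0 reads stand as 0.9 of a read, was -4.90, and only 1 of the 9615 genes was lower. That rank depends on the value entered for 0 reads and on the choice of the genes. With 0 reads entered as 3 reads the ratio of Fmnl1 was -3.17, above the -4.64 of Elmo1. Elmo1, which pairs with DOCK proteins to activate the GTPase Rac and is the mouse counterpart of a worm engulfment gene, spans 517847 bp (chromosome 13, 20090507 to 20608353, ENSMUSG00000041112). It had 1 probe over that length, with 1 read in tg and 47 in WT, 24.8-fold lower in tg (4.25 to 1002). The width of this interval comes from the single read in tg.

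Lat2 and Tifab carry or restrain signals. Lat2 encodes a transmembrane adaptor, also called NTAL or LAB, that is phosphorylated below Fc and B cell receptors and binds GRB2 (chromosome 5, 134600268 to 134615023, ENSMUSG00000040751). Its probe had 0 reads in tg and 41 in WT, at least 7.23-fold lower in tg by the floor of 3 reads and at least 5.62-fold lower by the 95% interval. Tifab encodes an inhibitor of TIFA and TRAF6 signalling; its human counterpart lies in a region deleted in some myelodysplastic syndromes (chromosome 13, 56173703 to 56178885, ENSMUSG00000049625). It stood apart in depth: its single probe had 8 reads in tg, where 103 would have matched the WT level, and 195 in WT, and 99.8% of all genes had a lower level than Tifab in WT. The tg level of 48.9 scaled reads (21.1 to 96.3) was still above that of 34.8% of genes, against 630 (544 to 725) in WT. The ratio was 12.9-fold lower in tg (6.41 to 30.3), the narrowest interval of the 7 genes with a finite one.

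Ly86 and Ms4a6c encode proteins of the cell surface. Ly86 encodes MD-1, the secreted partner of CD180, a receptor related to the Toll-like receptors of B cells, macrophages and dendritic cells (chromosome 13, 37345345 to 37419036, ENSMUSG00000021423). It is the only one of the 9 genes with more than 1 probe. Its 2 probes held 1 and 1 reads in tg, and 9 and 74 in WT, so the taller probe carried most of its WT signal. Summed, these are 2 reads in tg and 83 in WT, 21.9-fold lower (5.89 to 184). The deposited log2 ratio of Ly86, which weighs both probes alike, was -3.77. Ms4a6c encodes a membrane-spanning protein found on monocytes and macrophages (chromosome 19, 11469368 to 11482197, ENSMUSG00000079419). It had 2 reads in tg and 47 in WT, 12.4-fold lower (3.25 to 106).

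Wdfy4, Ap1s3 and Tm6sf1 encode proteins of vesicles and lysosomes. Wdfy4, which dendritic cells of the mouse need to present antigens of engulfed cells to killer T cells, spans 225962 bp (chromosome 14, 32959547 to 33185508, ENSMUSG00000051506). It had 1 read in tg and 44 in WT, 23.3-fold lower (3.96 to 939). Ap1s3 encodes a small subunit of the clathrin adaptor AP-1, which sorts cargo between the Golgi and endosomes (chromosome 1, 79606876 to 79671972, ENSMUSG00000054702). With 1 read in tg and 37 in WT it had the fewest WT reads of the 9 genes, and was 19.6-fold lower (3.30 to 793). Tm6sf1 encodes a multi-pass protein of lysosomal membranes (chromosome 7, 81859001 to 81884434, ENSMUSG00000038623). It had 1 read in tg and 43 in WT, 22.7-fold lower (3.87 to 919).

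Among themselves, most of the genes could not be ranked. Probe lengths are not given, so these are reads per probe and not per base. In WT the 7 genes with 1 probe other than Tifab lay between 119 scaled reads (84.1 to 165, Ap1s3) and 165 (123 to 217, Fmnl1), and their counting intervals overlapped. Tifab lay above them with an interval that met none of theirs. In tg the intervals of the 8 genes other than Tifab ran up to between 22.5 and 44.1 scaled reads and overlapped one another. The interval of Tifab in tg, from 21.1, met them too. In WT, 79.8% to 99.8% of all genes had a lower level than these 8 genes with 1 probe, Tifab included. In tg, 0% to 3.20% did, apart from the 34.8% for Tifab. Ly86, averaged over its 2 probes, had a higher level than 64.7% of genes in WT and 1.01% in tg.

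**Figure D2:**
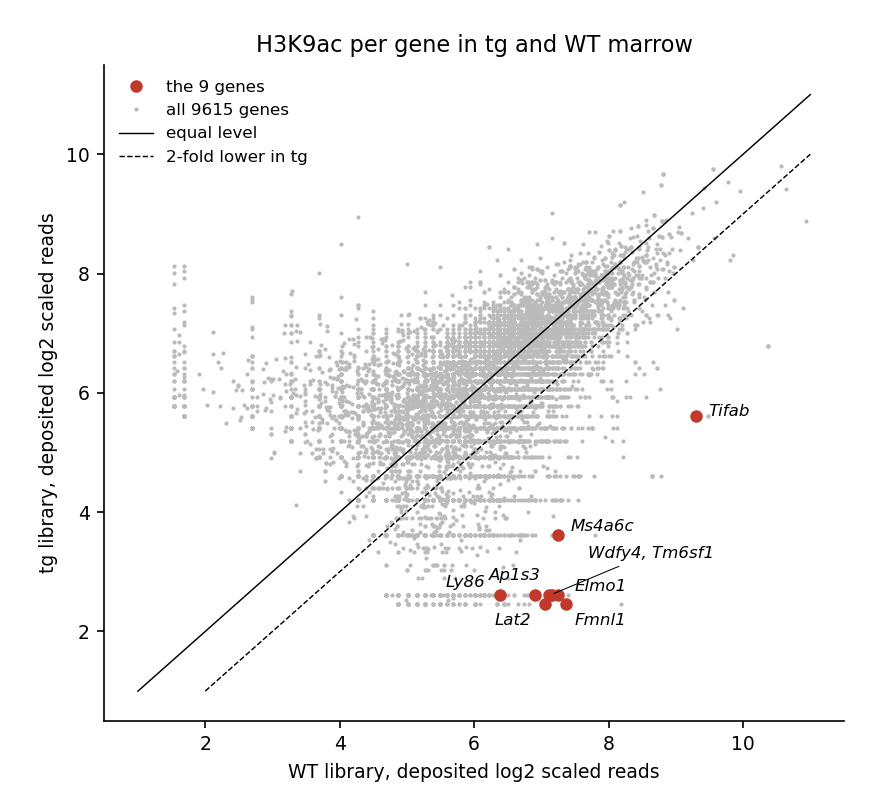
Each point is 1 gene, with its deposited log2 scaled reads in WT on the horizontal axis and in tg on the vertical axis; the solid line marks equal levels, the dashed line a 2-fold lower level in tg, and the 9 genes are red. The 8 genes other than Tifab lie at the bottom edge, where the horizontal rows of points are genes with 0, 1 or 2 reads in tg, and Tifab lies to the right at 8 reads in tg and 195 in WT.

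How many other genes had such reads depends on the limits set, which here come from the counts of the 9 genes themselves. A WT level of at least 83.3 scaled reads, that of Ly86, and a tg level of at most 48.9, that of Tifab, hold all 9 genes and took in 424 other genes (4.41%). Narrower limits leave out Tifab and Ly86. Of 1846 genes with 1 probe and at least 37 reads in WT, the count of Ap1s3, 14 (0.758%) had at most 2 reads in tg, and 7 of these 14 are among the 9 genes. At most 1 read in tg was seen for 8, of which 6 are among the 9, and 0 reads for 3: Fmnl1, Lat2 and the inhibitory myeloid receptor gene Sirpa, with 0 reads in tg and 90 in WT. The genes just outside, named after their values were seen, differ little. Dennd1c had 0 reads in tg and 35 in WT, Arl4c 0 and 33, and Tpd52 1 and 35. Hsh2d, with 3 reads in tg and 58 in WT, and Xaf1, with 3 and 52, were among the closest on the tg side. Among the 424 genes within the wider limits, the highest in WT included Clec2i, Ighj1, Ppp4r1, Slfn2, Sirpa, Kcna3, Tnfrsf1a, Bambi and H2afy. Each had at most 8 reads per probe in tg except H2afy, whose 2 probes held 3 and 13 reads in tg. In WT the probes of H2afy held 46 and 126 reads, and which is which between the libraries is unknown. Clec2i, Ighj1 and H2afy share a locus or values with other genes: Clec2i has the values of its neighbour BC035044, Ighj1 those of Ighj2 to Ighj4, and H2afy lies next to Tifab. Tnfrsf1a, a receptor of tumour necrosis factor, had 7 reads in tg and 83 in WT, 6.27-fold lower (2.91 to 16.1).

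The neighbouring genes were not chosen for their reads, so smaller differences there follow from the choice of the 9. Of all genes, 16.2% carry values identical to those of another gene within 100000 bp, and 0 of the 9 do. Of the 18 nearest genes in the table, 1 on each side of each gene, 5 lay 2-fold or more below WT in tg and 1 lay 2-fold or more above it, against 15.8% and 16.5% of all genes, and their median log2 ratio was -0.28, against 0.05 over all genes. Lat2 lies between Rfc2, 1940 bp away with 10 reads in tg and 19 in WT, and Eif4h, 4857 bp away with 32 in tg and 63 in WT. Both were nearly equal for the depth, with ratios of 0.995 (0.413 to 2.25) for Rfc2 and 0.961 (0.607 to 1.49) for Eif4h. The nearest gene before Tm6sf1, Btbd1, had a ratio of 0.931 (0.590 to 1.44), and Hexim2 before Fmnl1 one of 1.00 (0.722 to 1.39). Fam154b, after Tm6sf1, lay 748526 bp away and shares its values with Eftud1. It had 4 reads in tg and 9 in WT (0.841, 0.189 to 3.01). Distances of the 18 genes ran from the 1940 bp of Rfc2 to the 899889 bp of Acsl3 beside Ap1s3, so not all of them are close neighbours. Wdfy1, a relative of Wdfy4 that happens to lie 30290 bp from Ap1s3, had 21 reads in tg and 23 in WT, a ratio of 1.73 (0.909 to 3.26).

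The 5 lower neighbours lay beside Tifab, Ms4a6c, Ly86 and Fmnl1. On chromosome 13, Tifab lies 37342 bp from H2afy, the macroH2A histone gene, which had 16 reads in tg and 172 in WT, 5.68-fold lower (3.40 to 10.2). Smad5, 524125 bp to the other side, had 4 reads in tg and 24 in WT, 3.17-fold lower (1.09 to 12.6). Ms4a6b, the family member 34315 bp from Ms4a6c, had 0 reads in tg and 18 in WT, at least 3.17-fold lower by the floor of 3 reads and at least 2.32-fold lower by the 95% interval. F13a1, a factor XIII gene of monocytes and platelets 295101 bp before Ly86, had 3 reads in tg and 18 in WT, and its interval includes equality (3.17-fold lower, 0.926 to 16.8). Map3k14, a kinase gene beside Fmnl1, had 5 probes and a deposited log2 ratio of -1.04. Gpr141, the one that was higher, rested on 6 reads in tg and 5 in WT (ratio 2.27, 0.577 to 9.40).

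**Figure D3:**
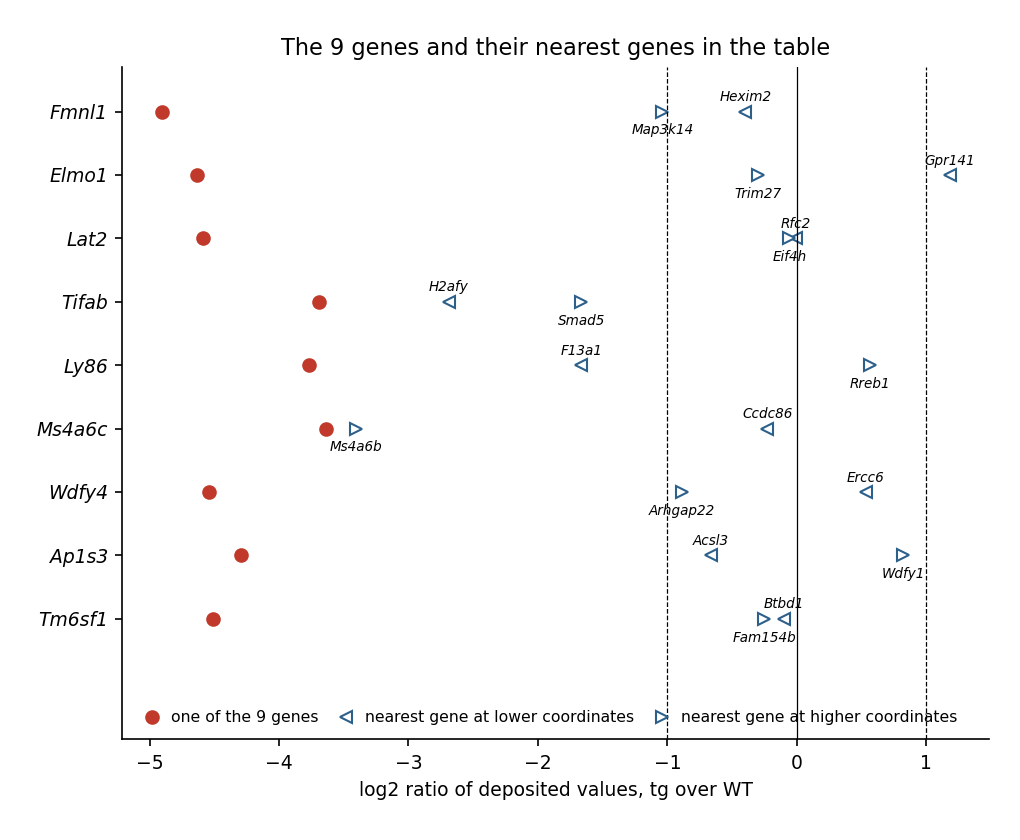
Deposited log2 ratio of tg over WT for each of the 9 genes (red circles) and for the nearest gene of the table at lower and at higher coordinates (open triangles pointing left and right); dashed lines mark 2-fold. The neighbours of Lat2 and Tm6sf1 lie near 0, while Ms4a6b lies beside Ms4a6c at -3.40 and H2afy beside Tifab at -2.69. Distances to the neighbours, not drawn, run from 1940 to 899889 bp.

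The sequences around the start sites were compared because the rule did not use them, though the motifs were chosen after the sequences had been seen. RefSeq windows of GRCm38.p6, from 250 bases before to 50 after a start, were at hand for 7 of the 9 genes (8 windows, 2 of them for Elmo1), all but Lat2 and Tm6sf1. Whether a probe covers any of them is unknown. Shown are the 2 windows with the most CpG dinucleotides, Fmnl1 (chr11:103170888-103171187, plus strand) and the first start of Elmo1 (chr13:20090257-20090556, plus strand), and 2 with few, Wdfy4 (chr14:33185017-33185316, minus strand) and Ms4a6c (chr19:11469118-11469417, plus strand). Each runs 5′ to 3′ on the strand of its gene, and capitals mark GGAAGT or its reverse complement, a core of sites bound by ETS factors such as PU.1. Every window shown holds these letters. Of those not shown, Ap1s3 holds them, while Ly86, the second start of Elmo1 and Tifab, which has the fewest CpG dinucleotides, do not.
Fmnl1: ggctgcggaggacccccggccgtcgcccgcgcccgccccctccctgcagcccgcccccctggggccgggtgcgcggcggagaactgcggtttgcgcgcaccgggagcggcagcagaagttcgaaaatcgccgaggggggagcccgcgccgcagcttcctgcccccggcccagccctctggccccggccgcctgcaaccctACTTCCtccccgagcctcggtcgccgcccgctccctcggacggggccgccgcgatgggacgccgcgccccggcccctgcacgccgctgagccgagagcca
Elmo1: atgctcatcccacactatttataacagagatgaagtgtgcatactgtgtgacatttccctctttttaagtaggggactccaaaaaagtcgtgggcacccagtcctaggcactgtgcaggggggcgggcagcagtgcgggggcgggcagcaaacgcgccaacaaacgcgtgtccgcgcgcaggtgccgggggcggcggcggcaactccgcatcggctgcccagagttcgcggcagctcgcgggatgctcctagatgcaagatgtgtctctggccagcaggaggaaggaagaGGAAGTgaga
Wdfy4: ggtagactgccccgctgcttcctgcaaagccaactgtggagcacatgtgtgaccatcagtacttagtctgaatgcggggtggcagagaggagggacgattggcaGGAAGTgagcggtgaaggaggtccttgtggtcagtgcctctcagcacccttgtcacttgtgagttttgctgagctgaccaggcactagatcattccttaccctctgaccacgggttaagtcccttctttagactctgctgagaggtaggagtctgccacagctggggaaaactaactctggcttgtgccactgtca
Ms4a6c: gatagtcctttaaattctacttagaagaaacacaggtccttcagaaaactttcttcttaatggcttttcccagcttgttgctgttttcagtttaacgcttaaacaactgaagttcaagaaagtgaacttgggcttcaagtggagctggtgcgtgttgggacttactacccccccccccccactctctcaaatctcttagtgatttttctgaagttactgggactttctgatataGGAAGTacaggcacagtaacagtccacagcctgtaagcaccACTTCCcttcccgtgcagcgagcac

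The windows of Fmnl1 and Elmo1 hold 43 and 21 CpG dinucleotides, those of Wdfy4 and Ms4a6c 5 and 4. Ap1s3 has 11, Ly86 13, Tifab 2 and the second start of Elmo1 6. So 6 of the 8 windows have fewer than 21, the median over the 8545 windows of genes in the table. The median over all 32851 windows of RefSeq is 7. The GC content runs from 45% in Ms4a6c to 79.3% in Fmnl1, and the median for genes in the table is 61%. On either strand, GGAAGT occurs in Fmnl1, Elmo1, Wdfy4, Ap1s3 and Ms4a6c, 5 of the 7 genes, and in 30% of windows of genes in the table. The longer GAGGAAGT, which contains it, occurs in Fmnl1 and Elmo1 and in 3.15% of such windows. The GC box GGGCGG occurs in the same 2 genes and in 63.9% of such windows, and the RUNX core TGTGGT in Wdfy4 and Tifab and in 12.1%. TATAAA occurs in Elmo1 and in 6.41%. The GATA core AGATAA, in 6.24% of such windows, the C/EBP-type letters TTNNGCAA, in 7.86%, and the interferon response element, in 3.17%, occur in 0 of the 8. These are matches of letters, not sites shown to be bound. Because the motifs were chosen with the sequences in view, nothing is read from the difference between these counts and shares. Elmo1 counts if either of its windows holds the letters, whereas the shares are per window.

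**Figure D4:**
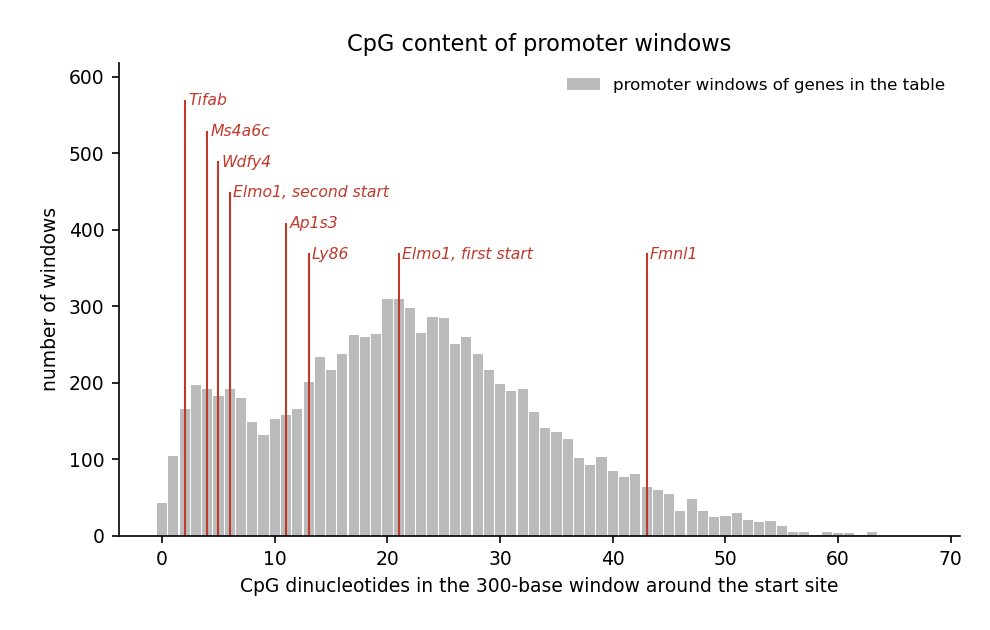
Number of RefSeq promoter windows of genes in the table (grey bars) by the CpG dinucleotides in each 300-base window; red lines mark the 8 windows of 7 of the 9 genes, and their heights carry no value. Of the 8, 6 lie below the median of 21 and Fmnl1 lies far above it at 43.

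Genes that work with the 9 were looked up in 9 lists, 1 for the family or pathway of each. Of 175 listed genes other than the 9, 110 were in the table. In tg, 33 of them (30.0%) were 2-fold lower or more and 18 (16.4%) 2-fold higher or more; over all genes these shares were 15.8% and 16.5%. The median log2 ratio of the 110 was -0.21, against 0.05 over all genes. Under 4-fold or more these counts were 14 lower and 8 higher.

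Ly86 was listed with CD180 and the genes of Toll-like receptors, their adaptors and their chaperones. Of the 9 others in the table, in tg 6 were 2-fold lower or more, 1 was higher, and the median log2 ratio was -2.40. Cd180, the receptor that MD-1 binds, had 1 read in tg and 27 in WT, 14.3-fold lower (2.35 to 584). The other 5, named after their values were seen, were Tlr2 (1 read in tg and 22 in WT), Tlr6 (4 and 22), Tlr9 (1 and 12), the Toll-like receptor escort Unc93b1 (1 and 14) and the chaperone Cnpy3 (1 and 10). Counting intervals for Tlr6, Tlr9 and Cnpy3 include equality. Tirap, an adaptor inside the cell, was the one that was higher, with 20 reads in tg and 8 in WT (4.73-fold, 1.995 to 12.4), and the chaperone gene Hsp90b1 was nearer to equality with 13 and 30 (0.820, 0.392 to 1.62).

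Of 20 other adaptors and kinases of immunoreceptor signalling, 11 were 2-fold lower or more and 3 were higher, with a median log2 ratio of -1.12. Syk, the kinase that Fc receptors recruit, had 4 reads in tg and 43 in WT, 5.68-fold lower (2.07 to 21.8). Skap2, an adaptor of integrin signalling, had 26 reads in tg and 229 in WT over 4 probes, 4.66-fold lower (3.10 to 7.28). Sla, which encodes an adaptor that dampens receptor signals and carries the same values as Tg, the gene it overlaps, was 2.82-fold lower (1.16 to 8.25). Grb2, whose protein binds phosphorylated LAT2, had 19 reads in tg and 56 in WT, a ratio of 0.642 (0.360 to 1.10).

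For the actin genes beside Fmnl1, 6 of 13 lay 2-fold or more below WT in tg and 3 above it, and the median log2 ratio was -0.26. Among the formins Diap1, which the lists hold as Diaph1, had 21 reads in tg and 33 in WT (log2 ratio 0.27), and Arpc5, a subunit of the Arp2/3 complex, 23 and 52 (0.837, 0.489 to 1.39). Wasl, the widely expressed relative of the Wiskott-Aldrich protein, had a deposited log2 ratio of 1.19, and its reads over both probes were 1.71-fold higher in tg (1.13 to 2.59). Coro1a and Lcp1, actin-binding genes of leukocytes named after their values were seen, were 3.40-fold (1.52 to 8.93) and 3.29-fold lower (1.86 to 6.26). Other formins, also named afterwards, went both ways. Daam1 had 11 reads in tg and 5 in WT, 4.16-fold higher (1.33 to 15.3), and Fmn2 had 5 and 4 (2.36, 0.509 to 11.9). Fhod1 had 3 and 19, 3.35-fold lower (0.986 to 17.7), and Diap2 5 and 19, 2.01-fold lower (0.726 to 6.88).

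The ELMO, DOCK and Rac list was centred near equality. Of 18 other genes, 4 were 2-fold lower or more and 3 higher, with a median log2 ratio of -0.09. Dock2, the main DOCK partner of ELMO1 in leukocytes, had 1 read in tg and 13 in WT, 6.87-fold lower (1.03 to 292). Dock5 had 29 reads in tg and 33 in WT (1.66, 0.974 to 2.82), and Elmo2, a close relative of Elmo1, had 7 and 9 (1.47, 0.466 to 4.44). Vav2, another activator of Rac, was 4.10-fold lower (1.45 to 15.98), and Dock8 1.58-fold lower over both probes (1.14 to 2.20), with a log2 ratio of -1.37. Rhog, whose GTPase recruits ELMO proteins, had a log2 ratio of 1.11 but 36 reads in tg and 49 in WT, a ratio of 1.39 (0.878 to 2.18). The adaptor gene Crk had 21 reads in tg and 44 in WT. Rac1 itself had a log2 ratio of 2.21 but 48 reads in tg and 60 in WT, a ratio of 1.51 (1.01 to 2.25). Its 2 probes held 9 and 39 reads in tg, and 1 and 59 in WT. Which tg count belongs to the same probe as which WT count is unknown.

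The list of Tifab was centred near equality too. Of 18 other genes of TIFA, TRAF and IRAK signalling, 2 were 2-fold lower or more and 3 higher, with a median log2 ratio of -0.14. Tifa, whose product TIFAB restrains, was one of the lower ones with 18 reads in tg and 79 in WT, 2.32-fold lower (1.38 to 4.12), and Traf5 the other, 2.42-fold lower (1.05 to 6.49). Traf6 had 21 reads in tg and 45 in WT, a ratio of 0.883 (0.499 to 1.51). Myd88, the adaptor of most Toll-like receptors, was 3.58-fold higher in tg (2.002 to 6.61), and the ubiquitin conjugation gene Ube2v1 2.42-fold higher (1.56 to 3.79).

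The vesicle families of Wdfy4, Ap1s3 and Tm6sf1 held few lower genes. Of 8 other BEACH and WDFY genes 0 were 2-fold lower or more and 1 was higher, Wdfy3, named after its values were seen, with a median log2 ratio of -0.42. Nbeal2, a gene of platelet granules, had 7 reads in tg and 26 in WT (log2 ratio -0.97), Nbeal1 had 10 and 31, and Nsmaf had 36 and 86. Of 21 other clathrin adaptor genes, 3 were lower and 4 higher, with a median of 0.39. Ap1s1, which encodes an alternative small subunit of AP-1, was higher in tg, with 18 reads in tg and 8 in WT (4.26-fold, 1.76 to 11.3), while Ap1s3 had 1 and 37. The large AP-1 subunit genes Ap1g1 and Ap1b1 had ratios of 0.621 (0.360 to 1.03) and 1.26 (0.447 to 3.35), and the medium subunit gene Ap1m1 0.788 (0.218 to 2.40). Gga1, another Golgi adaptor, was 3.05-fold lower (1.49 to 7.05), and the clathrin light chain gene Clta had 16 reads in both libraries (1.89, 0.885 to 4.04). The sterol enzyme gene Ebp and Tmem97, related to Tm6sf1 by a shared domain, had 6 reads in tg and 9 in WT, and 6 in tg and 8 in WT, with intervals that include equality. Of 17 other MS4A genes, Ms4a6b was the one in the table.

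**Figure D5:**
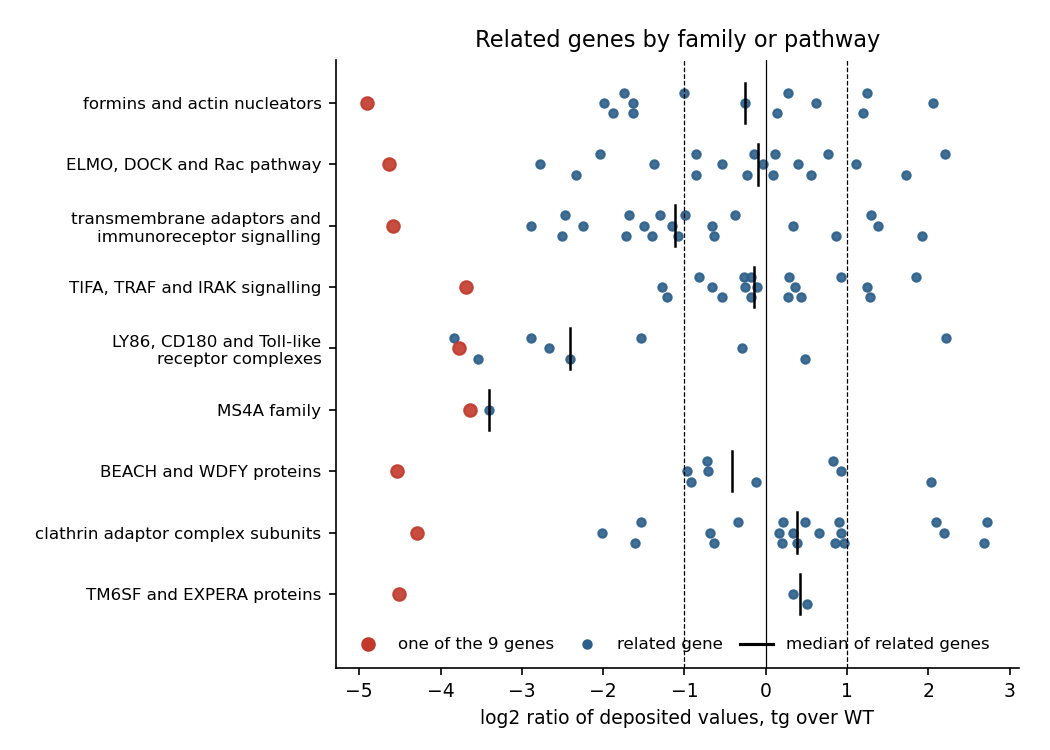
Deposited log2 ratios of tg over WT for the genes of 9 families or pathways, with the 9 genes in red, related genes in blue and the median of the related genes as a black bar; dashed lines mark 2-fold. The related genes of the Toll-like receptor list have a median of -2.40 and those of the immunoreceptor list -1.12, while those of the clathrin adaptor list have 0.39.

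Markers of whole cell types differed between the same libraries, and their part in the values of the 9 genes was not tested. Over all genes, 15.8% were 2-fold lower or more and 16.5% were 2-fold higher or more. Of the neutrophil list 5 of 20 genes were in the table and all 5 were 2-fold lower or more, with a summed level of 55.0 scaled reads in tg and 313 in WT. These levels rest on 9 reads in tg and 97 in WT, and the counting intervals of Prtn3 and Csf3r include equality. Of the monocyte and macrophage list 7 of 15 were in the table, of which 3 were lower and 1 higher, and the median log2 ratio was -0.08. The summed level was 483 in tg and 1883 in WT, from 79 reads in tg and 583 in WT. Most of these WT reads came from 2 genes, Irf8 (29 in tg and 407 in WT) and Sfpi1 (12 and 118). Csf1r, the one that was higher, had 9 and 4 (4.26-fold, 1.19 to 18.9). These genes were named after their values were seen. Of the dendritic list 8 of 15 were in the table and 6 were lower (1136 in tg and 3010 in WT, Irf8 included). No marker of these 3 lists had 0 reads in either library. Of the erythroid list 16 of 22 were in the table and 15 were higher. Over the 14 with recovered reads, the erythroid level was 3524 in tg and 843 in WT, with Rhag, Hbb-b1, Epor and Alas2 at 0 reads in WT. The B cell list had 2 of 15 genes in the table (220 in tg and 149 in WT) and the T and NK list 2 of 15 (61.1 in tg and 51.7 in WT). Both B cell genes share their values with a neighbour, so their reads may not be their own. Vpreb1, with 30 reads in tg and 33 in WT, has those of Top3b, and Pax5 those of Gm12462. In the neutrophil list, Prtn3 has the values of BC005764. The megakaryocyte list had 5 of 12 (330 in tg and 394 in WT, Selp at 0 in tg), the basophil, eosinophil and mast cell list 3 of 9 (171 in tg and 223 in WT, Hdc at 0 in tg) and the endothelial and stromal list 1 of 9 (6.11 in tg and 61.4 in WT).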

How the data were processed

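H3K9ac ChIP-seq of 2 libraries was analysed from a table with 1 row per gene. The authors' deposited values are log2 values, given per the file headers as a mean and a standard deviation over the probes of a gene, beside a count of probes deposited per gene. The submitters' processing notes list CASAVA 1.8.2, FastQC, BWA and SAMtools with the build GRCm38 (mm10). The sources used here do not say how probes were placed, filtered or scaled. Columns were matched to samples by library code.

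For the 7423 genes with 1 probe, all linear values (100%) came out as whole reads to within 0.01 once divided by a step of 1 read, with 0 reads entered as 0.9 of a read. With a scaling to 1000000 assumed, these steps correspond to totals of 163712 (tg) and 309649 (WT) reads. Another base common to both libraries would change the totals but not the folds. Reads were recovered for genes with up to 4 probes if a single set of whole reads gave the deposited mean and standard deviation (9492 genes, 98.7%), with a routine tested on simulated data (Python 3.11.15, numpy 2.4.6, pandas 2.3.3, scipy 1.17.1, matplotlib 3.10.9). Genes with fewer than 9 reads over both libraries do not appear among the 1-probe genes.

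Folds use reads summed over probes, scaled by the totals, with 95% Clopper-Pearson intervals conditional on the sum; a count of 0 is put at 3 reads and its fold given as "at least", beside the lower end of the 95% interval for the 9 genes and their neighbours. Levels have exact Poisson intervals. Reads are not independent molecules, and the intervals cover counting error only. For the 9 genes they also do not allow for the choice of the genes on the same counts. With 1 library per group no p-value is given; at least 2-fold (log2 ratio beyond 1) is a rule of size. The 9 genes, the lists and the rules were chosen with earlier results of these data known, and the motifs after the sequences had been seen.

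Named were the 9 genes, their nearest genes, up to 3 genes per list with the largest log2 ratio among those with a mean level of at least 62.1 scaled reads, direct partners, and the 10 most similar genes by WT level, of which 1 is not reported here; others are said to be chosen afterwards. Listed symbols were also matched through RefSeq synonyms.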

Additional observations from a re-analysis of the deposited data

How the results depend on the processing

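The count of 9 genes at least 2-fold lower in tg was recomputed under 7 alternatives: 3 shifts of the scale, summed reads, 0 reads entered as 3 reads, a 4-fold rule, and a filter at the median level. Their median log2 ratio of -4.51 was recomputed under all of these but the 4-fold rule, which leaves it as it is. The shifts that set the median of all genes, of the best covered genes or of 75 ribosomal protein genes to 0 were 0.05, -0.02 and -0.0039. The count stayed at 9, except for 8 of 8 under the filter, which Ly86 did not pass. The median lay between -4.55 and -3.77 (-3.77 with 0 reads entered as 3 reads), and no ratio of a single one of the 9 genes was above -2.85. Of the related genes, 33 were lower and 18 higher. The 4-fold rule gave 14 lower and 8 higher, against 5.5% and 5.46% of all genes. The filter left 49 of the 110 genes and gave 11 lower and 5 higher. Both alternatives count fewer genes by construction. Under the filter, lower and higher genes were each also a smaller part of the genes left than in the main count. With summed reads the counts were 32 lower and 13 higher of 108. Shares over all genes were not computed under the filter or with summed reads, so these counts have no background beside them. No paired analysis was possible because each genotype has 1 H3K9ac library, and no library could be left out for the same reason. Depth limits the tg side: for 8 of the 9 genes the fold rests on 0 to 2 reads in tg.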
